A study of Mus musculus with 7 samples.

Results

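The genes examined here encode the receptors through which B cells receive signals from BAFF, APRIL, CD40 ligand and CD70, together with the adaptor proteins that carry those signals into the cell. They were fixed as a list of 10 genes, namely the receptors Tnfrsf13b, Tnfrsf13c, Tnfrsf17, Cd40, Cd27 and Tnfrsf1b and the adaptors Traf1, Traf2, Traf3 and Traf5, and were taken from the 48795 genes of the deposited table by their Ensembl IDs. All 10 were found and all 10 could be tested. Cells came from the spleens of wild type C57BL/6 females aged 8 to 12 weeks, 10 days after an intravenous injection of sheep red blood cells, which provoke a T cell-dependent response with germinal centers (GCs). Memory B cells (MBCs, 3 libraries) had been sorted as B220+ CD138- IgD- CD38+ CD273+ and plasma cells (PCs, 4 libraries) as B220lo CD138+ IgD- by flow cytometry, after a magnetic separation with CD43 beads to enrich B cells. No unimmunized group was among these libraries. The sources do not say whether each library came from a separate animal, so the p-values measure the spread between libraries, which may be partly technical.

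BAFF and APRIL are survival cytokines of the TNF family. BAFF binds BAFF-R (Tnfrsf13c), TACI (Tnfrsf13b) and BCMA (Tnfrsf17), and APRIL binds TACI and BCMA. BAFF-R is known for keeping resting B cells alive, BCMA for keeping plasma cells alive, and TACI for restraining B cell numbers and for promoting class switching. CD40 receives help from T cells, CD27 binds CD70 and is a memory B cell marker in humans but much less so in mice, and Tnfrsf1b encodes the TNF receptor TNFR2. TRAF proteins bind the cytoplasmic tails of these receptors and connect them to the NF-κB transcription factors.

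The labels of the groups were checked against marker genes. All 6 PC markers were higher in every PC library than in every MBC library, and 5 of the 8 memory and B cell identity genes were lower in every PC library. The library labelled MBC replicate 3 stood apart from the other MBC libraries: Cd38, Pdcd1lg2 (CD273) and Ccr6 were at 6.77, 2.59 and 2.26 scaled TPM in it, against 130.3, 43.3 and 108 in MBC replicate 1 and 186, 24.4 and 136 in MBC replicate 2, and the 7 GC B cell genes summed to 894 scaled TPM against 273 and 299.8 in MBC replicates 1 and 2. Across the 11573 genes tested, on the log2(scaled TPM + 1) scale, this library correlated with the PC libraries at r = 0.7001 to 0.7771 and with MBC replicates 1 and 2 at 0.6873 and 0.6811, while those correlated with each other at 0.6753 and with the PC libraries at 0.5371 to 0.5643. Whether its sort or label differed was not tested. In MBC replicate 2 the 6 erythroid genes summed to 4524 scaled TPM and in every other library to at most 122. An estimate from low values put 1 TPM of a 1 kb transcript at 6.22 to 11.6 reads in the MBC libraries and 9.36 to 16.4 reads in the PC libraries, so low values were least precise in MBC replicates 1 (6.22 reads) and 2 (6.84 reads). Levels below are scaled TPM, that is, TPM (reads per length, as a share of the library) divided by a factor per library, and are comparable between genes. Series of values follow the replicate numbers, 1 to 3 for MBCs and 1 to 4 for PCs. In bulk libraries, fewer cells of a type and less RNA per cell cannot be told apart.

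Tnfrsf17, Tnfrsf13c and Cd40 differed between the populations past the threshold set out below. Tnfrsf17 was listed at 0 in every MBC library and was present in every PC library. Tnfrsf13c was 2.93-fold and Cd40 6.72-fold higher on average in MBCs. The 6 markers of naive and marginal zone B cells, which also carry BAFF-R and CD40, moved the same way: they summed to 533, 776 and 178 scaled TPM in the MBC libraries and to 51.8 to 78.9 in the PC libraries, and 2 of the 6 (Fcer2a and Cr2) were called lower in PCs. Ighd, although the sort was IgD-, was at 85.8, 39.9 and 9.55 scaled TPM in the MBC libraries and at 14.2 to 38.8 in the PC libraries. The part of naive or marginal zone cells in the results was not tested. Differences are given as log2 fold changes, PC minus MBC, of scaled TPM + 1, which understates the change of low genes. Calls needed an adjusted p (limma) under 0.05 and a log2 fold change of 1 or more in either direction. Of the 10 members, 2 were called lower in PCs (Tnfrsf13c and Cd40), where 2.14% of the 11573 genes tested were, and 1 was called higher (Tnfrsf17), where 6.41% were. Tnfrsf17 reached the minimum level for testing through the PC libraries alone. The remaining 7 members did not pass. Neither lower call held when libraries were matched by the code in their titles or by replicate number. The groups did not overlap in 6 of the 10 members (Tnfrsf17, Tnfrsf13c, Cd40, Cd27, Traf1 and Traf5), against 21.7% of all genes tested. The median log2 fold change of the 10 members was -0.75, and that of all genes tested was 0.14.

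**Figure D1:**
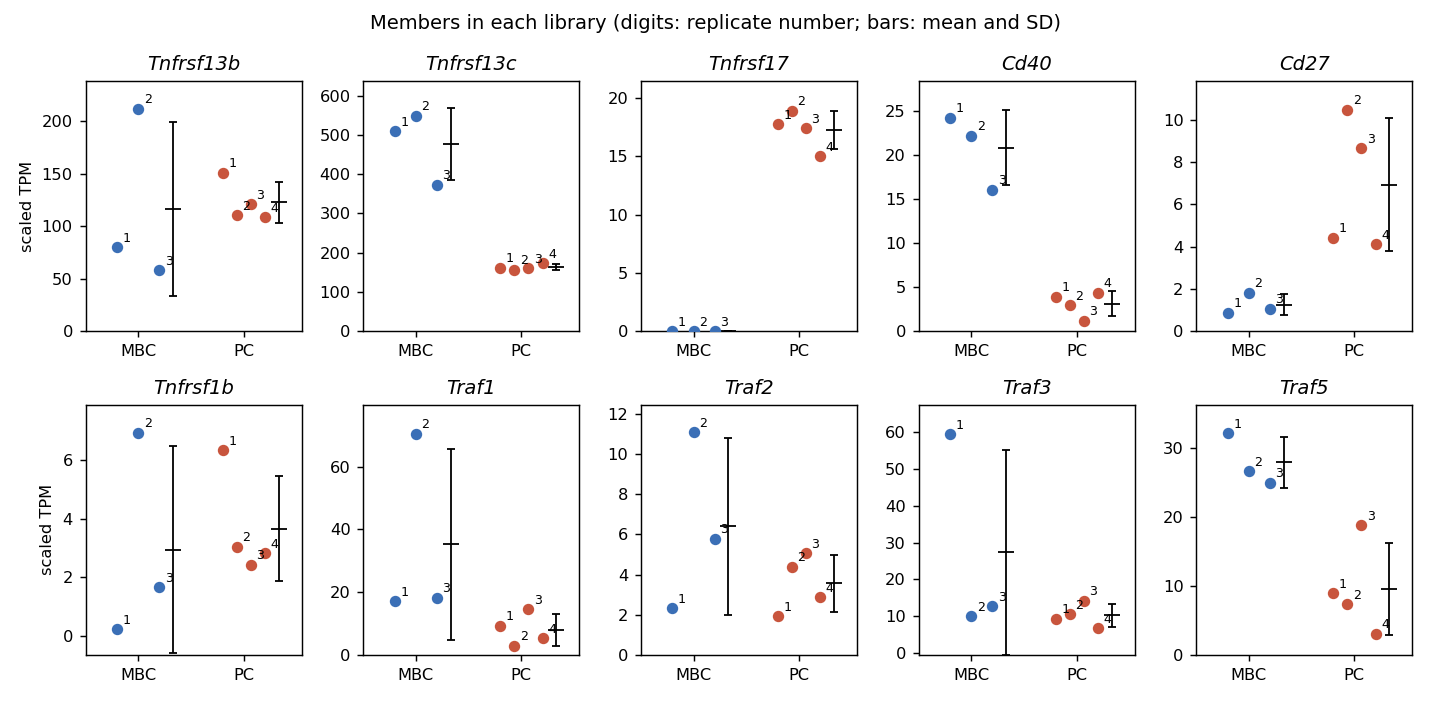
Scaled TPM (vertical axis, linear, a separate range for each gene) of the 10 members in the 3 MBC libraries (blue) and 4 PC libraries (red). Each point is a library labelled with its replicate number, and the black marks give the mean and SD; Tnfrsf17 lies at 0 in all MBC points, while the PC points of Tnfrsf13c and Cd40 all lie under their MBC points.

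The bases before the start of the BAFF and APRIL receptor genes are shown because these 3 genes share ligands and their proportions within a library differed between the populations. Each run holds the 250 bases upstream of the RefSeq start in GRCm38.p6, in the direction of transcription, for Tnfrsf13b (chr11:61126505-61126754, plus strand), Tnfrsf13c (chr15:82224381-82224630, minus strand) and Tnfrsf17 (chr16:11313559-11313808, plus strand). Capitals mark matches, on either strand, to the letters GGGNNNNNCC (NF-κB), CCCNNGGG (EBF1), GAAANNGAAA (the interferon-stimulated response element, ISRE) or ACGTG (XBP1).
Tnfrsf13b: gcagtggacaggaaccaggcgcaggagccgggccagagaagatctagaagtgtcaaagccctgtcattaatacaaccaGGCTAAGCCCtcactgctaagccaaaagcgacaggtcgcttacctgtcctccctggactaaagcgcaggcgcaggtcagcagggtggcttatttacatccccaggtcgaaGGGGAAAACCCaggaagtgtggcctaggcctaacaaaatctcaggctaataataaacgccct
Tnfrsf13c: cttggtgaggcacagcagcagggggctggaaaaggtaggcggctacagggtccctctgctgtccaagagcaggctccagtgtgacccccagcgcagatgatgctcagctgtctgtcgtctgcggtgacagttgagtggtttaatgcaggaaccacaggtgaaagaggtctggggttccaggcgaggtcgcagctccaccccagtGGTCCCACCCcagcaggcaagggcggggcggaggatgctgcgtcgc
Tnfrsf17: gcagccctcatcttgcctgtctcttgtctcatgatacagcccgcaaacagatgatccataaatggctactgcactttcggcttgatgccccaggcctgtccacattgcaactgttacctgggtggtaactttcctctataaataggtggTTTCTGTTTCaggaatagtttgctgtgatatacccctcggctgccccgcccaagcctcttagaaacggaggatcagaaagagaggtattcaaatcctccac

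The NF-κB letters occurred in the Tnfrsf13b window at positions -172 to -163 and, as overlapping matches, -62 to -52, and in the Tnfrsf13c window at -46 to -37, counted from the start. The Tnfrsf17 window held none of these and held the ISRE letters at -101 to -92. Promoter windows were found for 9 members. The Traf5 window, which held the NF-κB letters, failed a check: the bases after its start were not found in its transcript. The NF-κB letters were in 7 of the 9 and in 45.8% of all 32851 windows of this length, the EBF1 letters in 2 (Cd27 and Traf3) and in 11.8%, the ISRE letters in 2 (Tnfrsf17 and Tnfrsf1b) and in 2.98%, and the XBP1 letters in 0 and in 16.6%. NF-κB and EBF1 matches can overlap, as they did in Traf3. These are matches of letters and show no binding.

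Tnfrsf17, which encodes BCMA and lies at chr16:11313812-11320074 (GRCm38, plus strand), was at 17.7, 18.9, 17.4 and 15.0 scaled TPM in the PC libraries. It was listed at 0 in all 3 MBC libraries. The groups thus lay apart, and the PC libraries lay close together, with a coefficient of variation of 9.46%. The gene has 1 annotated transcript, of 815 bases, which allows its reads to be estimated: they numbered 103, 114, 78.9 and 108 in the PC libraries. A floor of 3 reads in a library, for counting error only, lay at 0.811, 0.737 and 0.442 TPM as deposited in the MBC libraries. With each MBC library set at that floor, the PC mean (17.3 ± 1.63 scaled TPM, SD, n = 4) was 44.8-fold the MBC mean. The log2 fold change of Tnfrsf17 was 4.19 (limma, adjusted p = 4.0e-04, and between 2.8e-04 and 0.0116 over 19 alternatives). It was called in all 19. The gene reached the minimum level for testing through the PC libraries alone, so these calls are no separate support for the difference.

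Tnfrsf13c, which encodes BAFF-R and lies at chr15:82221743-82224369 (minus strand), had the highest level of the members in both populations. It was at 509.9, 548.4 and 373.4 scaled TPM in the MBC libraries. In the PC libraries it was at 161, 157, 159.9 and 173. Every MBC library was above every PC library, and the PC values varied by 4.33% of their mean, the smallest variation among the members. The mean was 477 ± 92.0 for MBCs (SD, n = 3) but 163 ± 7.06 for PCs (SD, n = 4). On the log2 scale the difference was -1.53 with an SE of 0.28 (adjusted p = 0.0092, limma). The call held in 17 of 19 alternatives, with adjusted p between 3.9e-04 and 0.0955. It was lost when libraries were matched by title code or by replicate number (limma, adjusted p = 0.0693 and 0.0955). Without the library labelled MBC replicate 3 the difference was -1.69. Even in PCs its mean stood above that of 95.7% of the genes tested.

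Tnfrsf13b, which encodes TACI and lies at chr11:61126755-61149372 (plus strand), showed no difference past the threshold. It was at 79.8, 211.7 and 58.3 scaled TPM in the MBC libraries. It was at 151, 110.5, 121 and 109 in the PC libraries, within the MBC range. The log2 fold change was 0.28 (95% interval -0.70 to 1.27; limma, adjusted p = 0.74), and its sign followed the scaling: it was -1.03 in TPM as deposited, -0.10 with quantile normalization and -0.00060 with immunoglobulin genes removed, with adjusted p between 0.0685 and 0.999 over all alternatives. In TPM as deposited the groups did not overlap, with MBC libraries from 119.7 to 314 TPM and PC libraries from 74.3 to 98.1. On that scale the median of all genes tested was -0.91, and relative to it Tnfrsf13b was at -0.12. The highest MBC value belonged to replicate 2, the library with erythroid transcripts, whose part in this value was not tested; without that library the log2 fold change was 0.79 (adjusted p = 0.206).

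Ratios within a library do not depend on the scaling. There were 6.39, 2.59 and 6.40 Tnfrsf13c transcripts per Tnfrsf13b transcript in the MBC libraries, and 1.07, 1.42, 1.32 and 1.59 in the PC libraries. Of the summed TPM of the 3 BAFF and APRIL receptor genes, Tnfrsf13c made up 81.7% ± 8.27 among MBC libraries (SD, n = 3) but 53.9% ± 3.91 among PC libraries (SD, n = 4). Tnfrsf13b made up 18.3% ± 8.27 and 40.3% ± 3.93, and Tnfrsf17 made up 0% and 5.72% ± 0.67. The ranges of the groups were apart for each of the 3 shares, given as a description with no test. Their summed level was 594 ± 164 scaled TPM in MBCs and 303 ± 18.9 in PCs. BCMA transcripts thus remained the smallest of the 3 in PCs, with 5.84 to 8.51 Tnfrsf13b transcripts and 8.31 to 11.5 Tnfrsf13c transcripts for each Tnfrsf17 transcript.

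**Figure D2:**
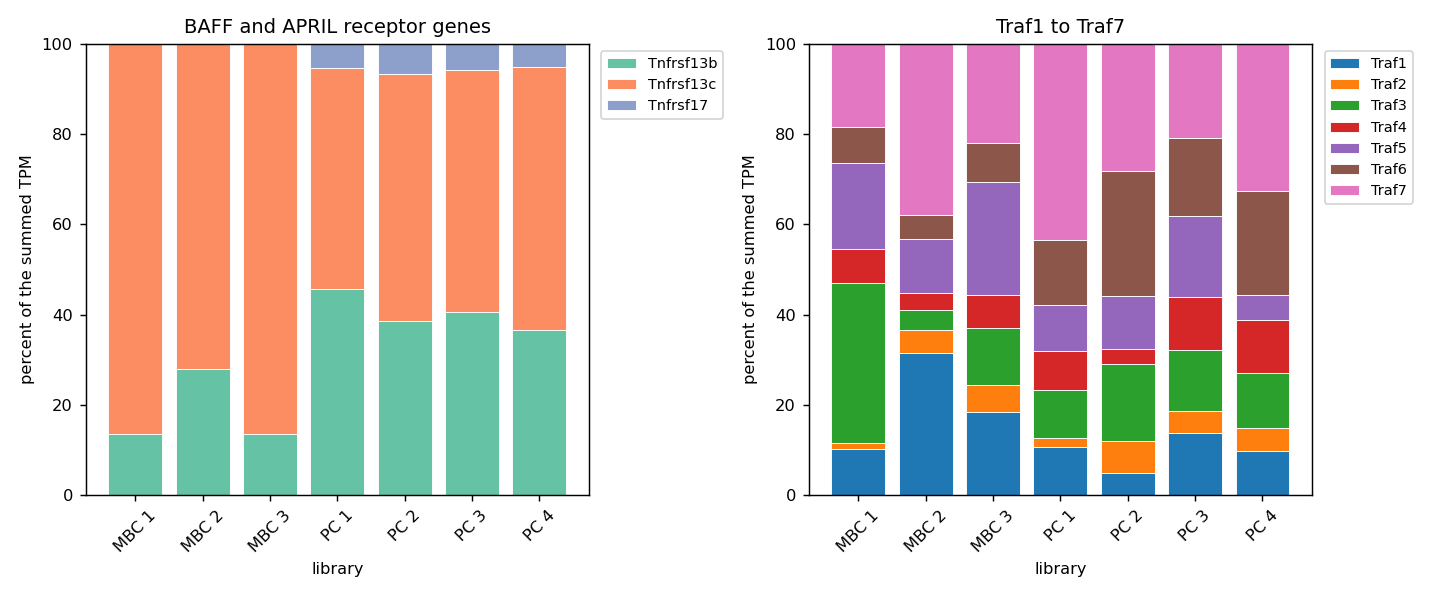
Percent of the summed TPM (vertical axis) taken in each of the 7 libraries by Tnfrsf13b, Tnfrsf13c and Tnfrsf17 (left) and by Traf1 to Traf7 (right); each bar is 1 library and sums to the whole. Tnfrsf13c takes 72.2% to 86.5% of the left bars in MBCs and 48.9% to 58.3% in PCs, and the share of Traf6 on the right is 5.28% to 8.51% in MBCs and 14.5% to 27.7% in PCs.

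Cd40, which encodes the receptor for T cell help and lies at chr2:165055627-165072948 (plus strand), was at 24.3, 22.3 and 16.1 scaled TPM in the MBC libraries. It was at 3.93, 2.93, 1.181 and 4.39 in the PC libraries. All PC libraries lay under all MBC libraries. By its mean Cd40 passed from sixth of the 10 members in MBCs to the lowest in PCs. Cd40 was not the lowest in every PC library: in replicate 1 Traf2 (1.93 scaled TPM) was under it. In replicate 4 Tnfrsf1b (2.82), Traf2 (2.86), Traf5 (3.08) and Cd27 (4.13) were all under Cd40. The log2 fold change of Cd40 was -2.47 (SE 0.50; limma, adjusted p = 0.0152). Without MBC replicate 3 the adjusted p was 0.0118. Leaving out PC replicate 2 ended the call (-2.50, adjusted p = 0.0576). Matching libraries by title code or by replicate number also ended it (limma, adjusted p = 0.0978 and 0.0843). Over all alternatives the adjusted p lay between 0.0016 and 0.0978.

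Cd27, which encodes the receptor for CD70 and lies at chr6:125232622-125237010 (minus strand), was low in MBCs, at 0.867, 1.83 and 1.07 scaled TPM in the 3 libraries. It was at 4.44, 10.5, 8.66 and 4.13 in the PC libraries. Every PC library was above every MBC library, also in TPM as deposited, but PC replicates 2 and 3 were about double replicates 1 and 4. The log2 fold change of 1.75 (95% interval 0.57 to 2.93) did not pass (limma, adjusted p = 0.0761). It passed in 1 of 18 alternatives, the fit with no mean-variance trend (adjusted p = 0.0499), and otherwise the adjusted p reached up to 0.289. Within a library there were 0.0357, 0.0820 and 0.0665 Cd27 transcripts per Cd40 transcript in the MBC libraries and 1.13, 3.58, 7.33 and 0.94 in the PC libraries.

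T cells also express Cd27. The 8 T cell markers summed to 14.3, 0 and 24.7 scaled TPM in the MBC libraries and to 15.3, 34.7, 41.6 and 41.8 in the PC libraries, and 3 of the 8 (Cd3e, Cd4 and Trac) were higher in every PC library than in every MBC library. In MBC replicates 1 and 3 nearly all of the sum was Lck, at 14.3 and 23.0 scaled TPM. Cd3e was at 11.8, 14.2, 3.86 and 12.5 scaled TPM in the PC libraries, lowest in replicate 3. Trac and Cd4 were instead highest in PC replicate 3, at 23.1 and 6.42 scaled TPM. Cd3e and Trac were called higher in PCs (limma, adjusted p = 0.0081 and 0.0191). Cd8a was at 0 in PC replicates 1 to 3. The part of T cell RNA in the Cd27 values was not tested. Cd27 also lies inside Vamp1 on the opposite strand, whose levels were 4.36 to 16.2 scaled TPM in MBCs and 4.06 to 11.04 in PCs, and whether the counting used strand is not given in the sources used here.

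Tnfrsf1b, which encodes TNFR2 and lies at chr4:145213463-145246870 (minus strand), was low and variable in both groups. It was at 0.22, 6.94 and 1.67 scaled TPM in the MBC libraries and at 6.34, 3.05, 2.44 and 2.82 in the PC libraries, with overlapping groups. The log2 fold change was 0.59 (95% interval -0.94 to 2.12; limma, adjusted p = 0.647). Its sign turned in TPM as deposited (-0.26) and without MBC replicate 1 (-0.07).

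Of the 4 TRAF adaptors none was called by limma, where 2.14% of all genes tested were called lower and 6.41% higher. Traf1 and Traf5 were those whose groups did not overlap, as was so for 21.7% of all genes tested. Traf1, a TRAF protein without a RING domain whose gene is an NF-κB target, lies at chr2:34941750-34961772 (minus strand). It was at 17.0, 70.4 and 18.3 scaled TPM in the MBC libraries and at 9.26, 2.99, 14.5 and 5.34 in the PC libraries. The gap between the lowest MBC and the highest PC library was small beside the spread in each group. For Traf1 the log2 fold change was -1.87 (SE 0.65; limma, adjusted p = 0.115), and without MBC replicate 2, the library with erythroid transcripts, it was -1.25.

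Traf5, which binds CD27 and CD40 and lies at chr1:191997205-192092559 (minus strand), was even in MBCs, at 32.1, 26.6 and 24.9 scaled TPM in the 3 libraries. It was at 8.90, 7.31, 18.8 and 3.08 in the PC libraries, where replicate 3 was highest for Traf1, Traf2, Traf3 and Traf5 alike. For Traf5 the log2 fold change was -1.67 (SE 0.54; limma, adjusted p = 0.0976). Without PC replicate 3 it was -2.05 (adjusted p = 0.0641).

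Traf2, which recruits the ubiquitin ligases Birc2 and Birc3, lies at chr2:25517982-25546940 (minus strand). It was at 2.31, 11.1 and 5.79 scaled TPM in the MBC libraries and at 1.93, 4.40, 5.06 and 2.86 in the PC libraries. Traf3, which holds the alternative NF-κB pathway in check by promoting the loss of the kinase NIK (Map3k14), lies at chr12:111166370-111267153 (plus strand). It was at 59.5, 9.91 and 12.7 scaled TPM in the MBC libraries and at 9.23, 10.6, 14.2 and 6.68 in the PC libraries. Both genes overlapped between the groups, with log2 fold changes of -0.56 (95% interval -1.89 to 0.77; limma, adjusted p = 0.61) and -0.94 (-2.33 to 0.45; adjusted p = 0.391). The difference of Traf3 rested on MBC replicate 1, without which it was -0.19 (adjusted p = 0.822).

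In TPM as deposited, Traf1, Traf3 and Traf5 were called lower in PCs (adjusted p = 0.0083, 0.0364 and 0.0071), on a scale where 3018 of 11573 genes were called lower. Relative to the median of all genes, the log2 fold changes of Traf1, Traf3 and Traf5 were -2.17, -1.26 and -1.98 there and -2.01, -1.08 and -1.81 after scaling. Summed over Traf1 to Traf7, MBCs had 163 ± 62.2 scaled TPM (SD, n = 3), while PCs had 77.4 ± 23.1 (SD, n = 4). Within that sum the share of Traf6, an adaptor of CD40 and of Toll-like receptors, was 7.91%, 5.28% and 8.51% in the MBC libraries and 14.5%, 27.7%, 17.2% and 23.0% in the PC libraries. The other 6 shares overlapped between the groups. The level of Traf6 itself was 11.2 ± 2.47 scaled TPM in MBCs and 15.1 ± 2.85 in PCs, with overlap (limma, adjusted p = 0.574).

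**Figure D3:**
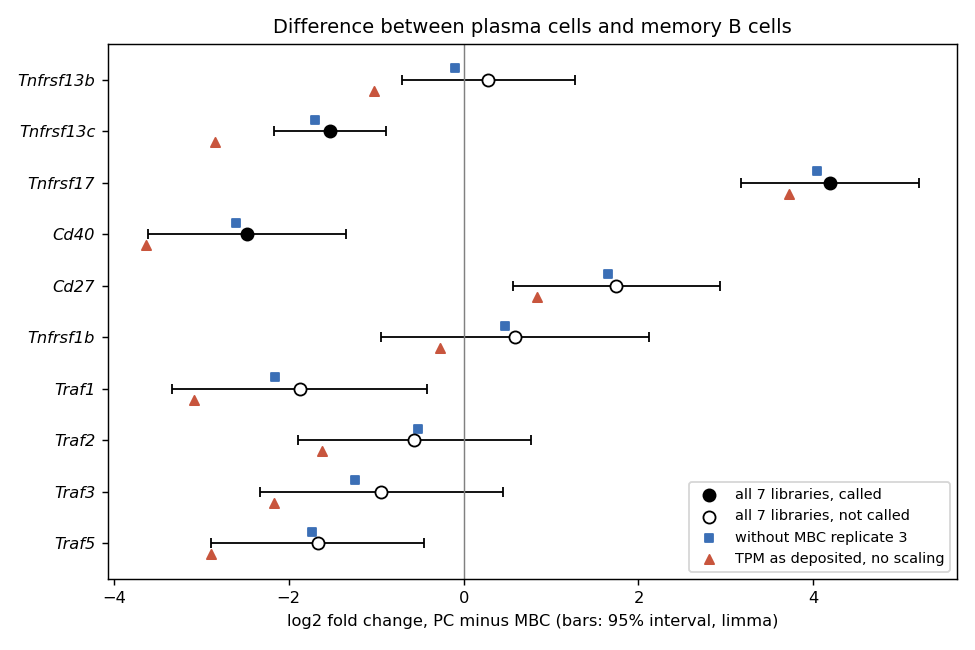
Log2 fold change, PC minus MBC (horizontal axis), of the 10 members from limma with all 7 libraries, as filled circles where called and open circles where not, with 95% intervals. Blue squares leave out MBC replicate 3 and red triangles use TPM as deposited; the triangles lie to the left of the circles for all 10 genes, and Tnfrsf13b and Tnfrsf1b change sign there.

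The order of the levels differed between the populations. In MBCs the means ran from Tnfrsf13c through Tnfrsf13b, Traf1, Traf5, Traf3, Cd40, Traf2, Tnfrsf1b and Cd27 to Tnfrsf17. The libraries of Tnfrsf13c were all above those of Tnfrsf13b, and those of Cd40 all above those of Traf2. From Tnfrsf13b down to Cd40 and from Traf2 down to Cd27, the ranges of neighbours over the libraries overlapped. Within each MBC library, however, Tnfrsf13b was above Traf1, and Traf2 was above Tnfrsf1b. Cd27 was above Tnfrsf17 in every MBC library. In PCs Tnfrsf13c, Tnfrsf13b and Tnfrsf17 came first, each with all libraries above the next gene, and from Traf3 through Traf5, Traf1, Cd27, Tnfrsf1b and Traf2 to Cd40 neighbours overlapped. The 3 BAFF and APRIL receptors thus had the highest means in PCs, but in PC replicate 3 Traf5 (18.8 scaled TPM) was above Tnfrsf17 (17.4).

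Related genes came from 6 lists of 78 genes in all. For comparison, 2.14% of all genes tested were called lower and 6.41% higher, and 21.7% did not overlap. Of the 7 ligand genes 3 could be tested, and 1 was called, in the lower direction. This was Tnf, at 7.68, 11.1 and 10.5 scaled TPM in the MBC libraries and at 1.78, 2.33, 0.32 and 2.08 in the PC libraries, without overlap (log2 fold change -2.10, SE 0.53; limma, adjusted p = 0.0389). The call held in 7 of 19 alternatives and was lost on leaving out any single library but MBC replicate 3, with adjusted p between 0.0038 and 0.173 over all alternatives. Lta, a second ligand of the TNF receptors, also did not overlap, at 16.4 ± 6.90 and 3.59 ± 3.23 scaled TPM, and did not pass (adjusted p = 0.0909). The ligands of the BAFF system were near or at 0: Tnfsf13 (APRIL) was listed at 0 in all 7 libraries and Tnfsf13b (BAFF) at no more than 0.63 TPM as deposited. Cd40lg and Cd70 were at no more than 0.92 and 0.55 TPM.

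Of 22 other genes of the TNF receptor superfamily 4 reached the minimum level and 0 were called by limma, nor did any have an unadjusted p under 0.05. Fas, a death receptor, was at 20.5 ± 14.4 scaled TPM in MBCs and 9.37 ± 3.34 in PCs. Of the 17 other TRAF genes and TRAF partners all were tested and 0 were called by limma, with 4 lower and 0 higher at an unadjusted p under 0.05. Birc3 was at 85.2 ± 31.1 scaled TPM in MBCs and 37.4 ± 6.70 in PCs, and its relative Birc2 at 21.6 ± 10.4 and 35.3 ± 4.31. Both were without overlap and neither passed (limma, adjusted p = 0.106 and 0.285). Map3k14 was at 10.9 ± 8.87 and 3.47 ± 1.82 scaled TPM (adjusted p = 0.253).

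Among 14 genes of the NF-κB pathway 1 was called, Rel, which encodes the subunit c-Rel. It was at 85.1, 72.3 and 49.5 scaled TPM in the MBC libraries and at 11.3, 7.98, 10.4 and 8.74 in the PC libraries (log2 fold change -2.70, SE 0.37; limma, adjusted p = 0.0017), and was called in all 19 alternatives. Nfkb2 and Relb, the subunits of the alternative pathway downstream of BAFF-R and CD40, were at 8.05 ± 1.43 and 3.01 ± 2.07 scaled TPM in MBCs and at 8.60 ± 1.14 and 1.90 ± 1.00 in PCs, with log2 fold changes of 0.09 (adjusted p = 0.923) and -0.35 (adjusted p = 0.761).

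Of 9 genes for cleavage of these receptors at the cell surface, 7 were tested and 0 called by limma, with 1 lower and 1 higher at an unadjusted p under 0.05. Gamma-secretase is known to shed BCMA. Its subunit gene Psenen was at 47.0 ± 12.7 scaled TPM in MBCs and 99.4 ± 26.1 in PCs, without overlap (limma, adjusted p = 0.112), and Psen2, a catalytic subunit, at 18.8 ± 15.7 and 4.45 ± 1.25 (adjusted p = 0.146).

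Of 9 survival genes 8 were tested and 2 were called, both higher in PCs. Pim1 and Pim2 encode serine and threonine kinases that support survival. Pim1 was at 9.58, 15.6 and 14.6 scaled TPM in the MBC libraries and at 79.9, 63.4, 51.2 and 53.5 in the PC libraries (log2 fold change 2.15, SE 0.35; limma, adjusted p = 0.0049). Pim2 was at 12.4, 6.43 and 4.50 in MBCs and at 50.3, 44.4, 41.2 and 31.4 in PCs (2.37, SE 0.42; adjusted p = 0.0076). Each held in 17 of 19 alternatives and was lost in TPM as deposited. Mcl1, which BCMA signals are known to sustain, was at 140 ± 66.7 scaled TPM in MBCs and 138 ± 15.0 in PCs (log2 fold change 0.06, adjusted p = 0.934). Bcl2l11, which encodes the death promoter BIM, was at 18.4 ± 9.94 and 51.7 ± 13.6 without overlap (1.53, adjusted p = 0.0546).

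**Figure D4:**
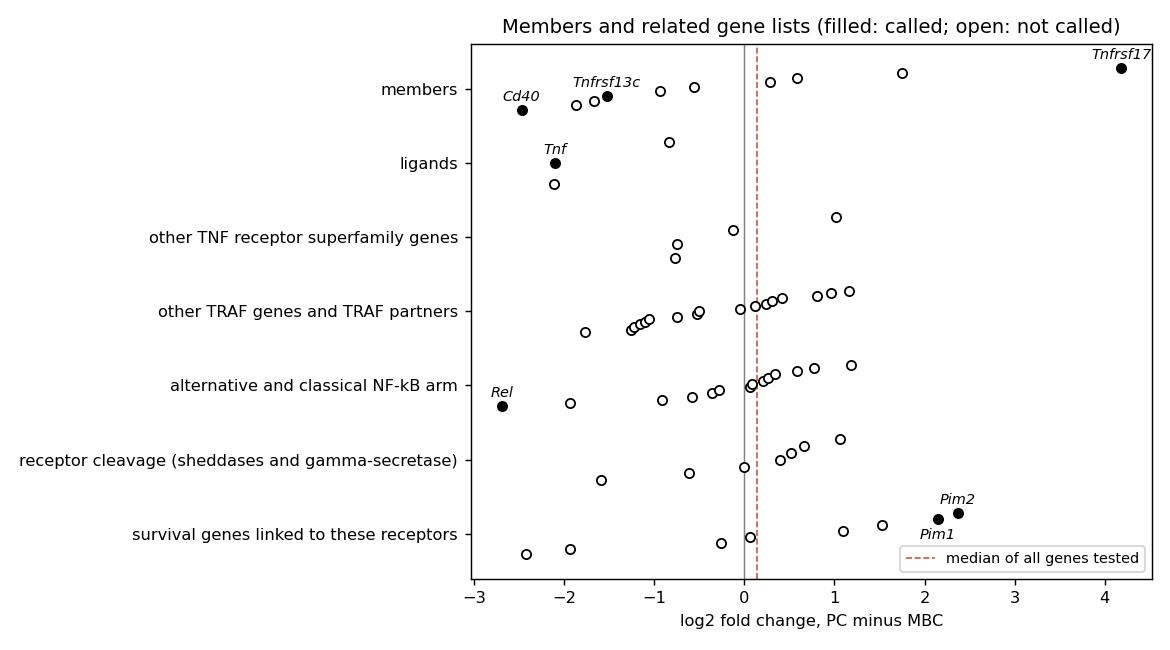
Log2 fold change, PC minus MBC (horizontal axis), of every tested gene among the members and the 6 related lists, 1 point a gene, filled and named where called. The dashed line is the median of all 11573 genes tested (0.14); the called points outside the members are Tnf and Rel to the left and Pim1 and Pim2 to the right.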

How the data were processed

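Bulk RNA sequencing of 3 MBC and 4 PC libraries was examined. The deposited table holds TPM values, which the authors made per library; the submitters' processing notes name STAR 2.5.2a, RSEM 1.3.0 and DESeq2 1.18.1 and the build GRCm38. The annotation release is not given in the sources used here. Symbols and coordinates came from GENCODE M21 (GRCm38) for 48435 of 48795 IDs, and promoters from RefSeq. Per the labels, cDNA was prepared with a Nugen kit.

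Each library was divided by the median ratio of its TPM to the geometric mean over 9305 genes above 0 everywhere, because immunoglobulin genes filled 1.65% to 3.16% of MBC libraries and 49.4% to 55.9% of PC libraries. The 11573 genes at 1 TPM or more in at least 3 libraries were fitted in R 4.3.3 by limma 3.58.1 (trend, no covariate), using log2(scaled TPM + 1), with Benjamini-Hochberg adjustment over all of them; the fit was tested on simulated data. Reads were estimated by finding the TPM value of 1 read that brought low values of single-transcript genes nearest whole multiples, within 0.15 of a read (75.0% to 84.2% of values, where 30% would by coincidence). Floors cover counting error only. The titles carry 4 codes under 2 prefixes whose meaning is not given; 3 codes occur in both groups. Members and lists were chosen with earlier results of these data known. The members, every called gene of a list (up to 6) and any gene needed for a comparison were named; Fas, Traf6, Lta, Birc2, Birc3, Map3k14, Nfkb2, Relb, Psenen, Psen2, Mcl1 and Bcl2l11 were picked from the lists after their values were seen. Figures were drawn in Python 3.11.15.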

Additional observations from a re-analysis of the deposited data

Results flagged for a closer look

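In PC replicate 1 Tnfrsf1b, the TNFR2 gene, was at 6.34 scaled TPM, while the other PC libraries lay between 2.44 and 3.05. The gap to the nearest library was 0.843 of the range of the group, which exceeds what Dixon's test allows at 95% in a group of 4. Of 24 results examined in the PC group this was the only 1 past it, where chance gives about 1 in 20, or 1.2. The cause was not tested.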

How the results depend on the processing

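Of the members' values under 19 alternatives, 171 kept their direction and call, 7 turned in sign, 4 gained a call and 5 lost one. Members called lower (2) became 5 in TPM as deposited and 1 without PC replicate 2 (range 1 to 2 on leaving out a library); members called higher (1) became 2 with no mean-variance trend. Over all genes, 742 higher and 248 lower calls became 472 and 3018 in TPM as deposited and 384 and 408 with immunoglobulin genes removed; the lower calls became 455 with quantile normalization and 448 with the more frequent title prefix only, where Tnfrsf13c, Cd40 and Tnfrsf17 kept their calls. The rarer prefix holds 1 library a group. Testing all genes above 0 gave 437 and 123. Leaving out a library gave 456 (PC replicate 2) to 1624 (MBC replicate 3) higher and 93 (PC replicate 2) to 881 (MBC replicate 3) lower; without PC replicate 4 there were 477 higher. Lower calls numbered 138 and 153 without MBC replicates 1 and 2, and 140, 123 and 114 without PC replicates 1, 3 and 4.

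The log2 fold change of Tnfrsf13b turned to -1.03 in TPM as deposited, -0.10 after quantile normalization, -0.00060 once immunoglobulin genes were removed and -0.042 within the more frequent prefix, and ran from -0.10 (without MBC replicate 3) to 0.79 (without MBC replicate 2). That of Tnfrsf1b turned to -0.26 in TPM as deposited and ran from -0.072 (without MBC replicate 1) to 1.26 (without MBC replicate 2). The share of Traf2 within the TRAF genes, PC minus MBC, ran from -0.57 to 1.66 points and that of Traf3 from -10.8 to 4.70, with the sign turned without MBC replicate 1. The causes were not tested. Depth limits Tnfrsf17 in MBCs, where 0 reads allow up to the floor of 3 in each library.

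With the title code as a replicate block, limma called 434 genes higher and 83 lower, and with the replicate number as a replicate block 390 and 60. Members called lower were then 0 and 0, with 4 and 2 lower at an unadjusted p under 0.05. Tnfrsf13c had log2 fold changes of -1.51 and -1.56 (adjusted p = 0.0693 and 0.0955) and Cd40 of -2.48 and -2.63 (adjusted p = 0.0978 and 0.0843), near those without a block. Pim1 and Pim2 lost their calls under the number. Deviations from the group means correlated at 0.109, -0.0044 and 0.222 in the pairs that share a code. They correlated at 0.109, -0.0398 and -0.0832 in those that share a number. So few pairs cannot decide whether the libraries were paired. The main fit used no block because the meaning of the codes is not given.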

Other observations

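The genes most like the receptors across the 7 libraries were listed by Pearson's r of log2(scaled TPM + 1), with immunoglobulin genes left out. All points share the 2 groups and the scaling, so r carries the difference between the groups, and no test was made. For Tnfrsf17 they were Cd28 (r = 0.9999), which encodes a costimulatory receptor, Wipi1 (0.9998), an autophagy gene, and Bhlha15 (0.9989), a transcription factor of secretory cells. Bhlha15 was at 55.3 to 58.7 scaled TPM in PCs and at no more than 0.156 in MBCs. For Tnfrsf13c they were Bcl11a (0.9961), Smim14 (0.9960) and Ciita (0.9957), which switches on MHC class II. For Cd40 they were Pfn1 (0.9909) and Arpc1b (0.9904), whose products act on actin, then Invs (0.9899).

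Tnfrsf13b did not follow the groups, and the genes most like it followed the same libraries: Cdkn1b (0.9820), a cell cycle inhibitor, Ass1 (0.9799) and Coro2a (0.9749). Cdkn1b was at 5.01, 30.1 and 1.91 scaled TPM in the MBC libraries and at 11.5 to 20.4 in PCs. For Cd27 they were Mvb12b (0.9762), Sec23ip (0.9695) and Sidt2 (0.9658).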
